A study of Mus musculus with 16 samples.

Results

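The markers described here are 9 genes used to follow bile duct cells and the ductular reaction in liver: Krt7, Krt19 and Krt23 as duct keratins, Krt8 and Krt18 as hepatocyte keratins, and Epcam, Sox9, Cftr and Cd24a as further epithelial and progenitor markers. They were taken by gene symbol from 17410 measured genes, and all 9 were found. RNA from 16 mouse livers, 4 in each of 4 groups, had been sequenced to examine the α isoform of ChREBP, a carbohydrate-responsive transcription factor encoded by Mlxipl, in diet-induced fatty liver disease. In the deletion experiment, mice carrying loxP-flanked Chrebpα alleles received an adeno-associated virus with the TBG promoter, which is active in hepatocytes, and a NASH diet with 40% of energy as fat, 20% as fructose and 2% cholesterol for 12 weeks. The virus carried Cre in the LKO_NASH livers and GFP in the WT_NASH livers, so both groups share the floxed alleles, a virus and the diet, and bile duct cells are not the cells in which this promoter is known to act. In the overexpression experiment, wild-type mice that were 2 months old received a choline-free diet with 45% of energy as fat and 0.1% added methionine, labelled HFLMCD and given for 3 weeks, and an adenovirus 1 week before dissection. The adenovirus carried Chrebpα in the Ad_Chrebpa_HFLMCD livers and GFP in the Ad_GFP_HFLMCD livers, and both groups share the wild-type genotype, an adenovirus and the diet. The strain of the wild-type mice, the age of the floxed mice and the promoter of the adenovirus were not given in the sources used here.

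Bile ducts are lined by cholangiocytes, an epithelium that modifies bile and shares an embryonic origin with hepatocytes. Keratin filaments are built from a type I and a type II keratin together: hepatocytes use Krt18 (type I) with Krt8 (type II), while cholangiocytes add Krt19 (type I) and Krt7 (type II) to that pair. In chronic liver injury, small duct-like cells expand around the portal tracts, which is called the ductular reaction, and these cells carry Krt7, Krt19, Epcam, Sox9 and Cd24. Krt23 is a type I keratin that is low in healthy liver and is known as a stress-inducible marker of the ductular reaction.

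The RefSeq promoter table (GRCm38.p6) matched 6 of the 9 markers. The 250 bases upstream of the annotated start are shown for the 3 keratins on which the results turn, the hepatocyte pair Krt8 and Krt18 and the inducible Krt23, 5′ to 3′ on the gene's own strand, with motif matches in capitals. Krt8 lies on the minus strand at chr15:102004343-102004592, Krt18 on the plus strand at chr15:102027966-102028215, and Krt23 on the minus strand at chr11:99493121-99493370.
Krt23: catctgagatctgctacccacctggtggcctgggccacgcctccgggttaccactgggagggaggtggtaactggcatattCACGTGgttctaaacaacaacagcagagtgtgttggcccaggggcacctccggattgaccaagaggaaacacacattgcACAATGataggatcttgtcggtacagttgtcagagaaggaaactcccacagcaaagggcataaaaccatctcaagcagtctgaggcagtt
Krt8: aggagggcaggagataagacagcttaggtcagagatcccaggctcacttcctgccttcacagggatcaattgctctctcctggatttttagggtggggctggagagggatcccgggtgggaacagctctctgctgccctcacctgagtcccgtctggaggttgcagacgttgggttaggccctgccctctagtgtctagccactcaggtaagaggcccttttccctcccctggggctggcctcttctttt
Krt18: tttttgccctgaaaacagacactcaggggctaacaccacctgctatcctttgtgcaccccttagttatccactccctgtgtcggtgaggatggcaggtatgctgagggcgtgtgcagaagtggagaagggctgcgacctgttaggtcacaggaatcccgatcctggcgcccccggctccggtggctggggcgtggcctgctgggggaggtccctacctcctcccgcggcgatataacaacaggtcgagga
Both strands were searched for the TATA box (TATAAA), the GC box (GGGCGG), the CAAT box (CCAAT), and the motifs of AP-1 factors (TGANTCA), TEAD factors (GGAATG) and SOX factors (ACAATG), with the E-box (CACGTG) as the last, and none of these motifs contains another. The Krt23 window held the E-box letters 169 bases and the SOX letters 90 bases upstream of the start. The letters CACGTG are found in 6.0% and ACAATG in 10.7% of 32851 promoter windows of the same length. None of the 7 motifs was found in the Krt8 and Krt18 windows. Among the markers not shown, the Cftr window held 6 GC boxes, the Krt7 window 4 and the Epcam window 1, with GGGCGG present in 32.7% of all windows. Cftr also had the highest GC content of the 6 windows, 76.4%, against a median of 52.4% over all windows. These matches describe letters in a window and say nothing on whether a factor binds there.

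The libraries held 21254937 to 40327264 expected counts, the estimated fragments per gene. Levels are given as FPKM (fragments per kilobase, corrected for library size), and fold changes come from edgeR's quasi-likelihood test on the counts, with Benjamini-Hochberg adjustment over all genes tested and a threshold of 0.05. Mlxipl, the targeted gene, was not separated by the labels: it measured 76.4 ± 22.3 FPKM in LKO_NASH livers and 66.1 ± 15.1 FPKM in WT_NASH livers, and 46.1 ± 1.41 FPKM in Ad_Chrebpa_HFLMCD livers and 43.7 ± 4.61 FPKM in Ad_GFP_HFLMCD livers (SD, n = 4 each). A value for the whole gene does not isolate the deleted part or the α isoform. Neither the deletion nor the overexpression was therefore seen in this gene's level, and both names follow the labels. Whether the adenoviral transcript was counted to Mlxipl was not tested. On the leading principal component of the deletion experiment, LKO_NASH liver 21 lay at -21.13, among the WT_NASH livers at -35.05 to 1.14, while the other LKO_NASH livers lay between 27.9 and 27.97. On that of the overexpression experiment, Ad_Chrebpa_HFLMCD liver 14 lay at 6.77, apart from the other Ad_Chrebpa_HFLMCD livers at 18.67 to 20.93, and the Ad_GFP_HFLMCD livers were at -20.54 to -14.11. In whole liver RNA, fewer cells of a type and less RNA per cell cannot be told apart.

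With Chrebpα overexpression, 8 of the 9 markers fell and none rose. The lower call was made for 3.18% of the 13658 genes tested and the higher call for 4.95%. Krt23 and the chloride channel gene Cftr fell most, 4.72-fold and 5.71-fold, followed by Krt19 at 2.33-fold and Epcam at 1.86-fold. The hepatocyte keratins Krt8 and Krt18 fell less, 1.38-fold and 1.3-fold. The median log2 fold change of the 9 markers was -0.90, against -0.01 over all genes tested. The count of markers called lower was 5 without Ad_Chrebpa_HFLMCD liver 13 or liver 15, 4 without liver 16 and 8 without liver 14. Without Ad_GFP_HFLMCD livers 9, 10, 11 and 12 in turn it was 8, 7, 6 and 7. With all 16 libraries in 1 fit it was 2, and with DESeq2 it was 9.

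Krt23, the inducible duct keratin, measured 2.81, 3.88, 1.39 and 2.34 FPKM in Ad_Chrebpa_HFLMCD livers 13 to 16, against 13.97, 14.26, 12.16 and 11.73 FPKM in Ad_GFP_HFLMCD livers 9 to 12. Every Ad_Chrebpa_HFLMCD liver was below every Ad_GFP_HFLMCD liver, and the Ad_GFP_HFLMCD livers were tightly grouped. The log2 fold change was -2.24 (95% interval -2.77 to -1.71, edgeR adjusted p = 0.0013), which placed Krt23 at rank 29 by p among all genes tested. Krt19, the type I keratin of normal bile ducts, measured 1.01, 0.8, 0.81 and 0.95 FPKM in Ad_Chrebpa_HFLMCD livers, against 1.91, 2.82, 1.62 and 2.43 FPKM in Ad_GFP_HFLMCD livers. These groups did not overlap either, and the log2 fold change was -1.22 (SE 0.196, edgeR adjusted p = 0.00799). Krt7, the type II partner in ducts, measured 0.63, 0.61, 0.3 and 0.66 FPKM in Ad_Chrebpa_HFLMCD livers, against 0.66, 1.61, 1.19 and 1.37 FPKM in Ad_GFP_HFLMCD livers. The groups met at Ad_GFP_HFLMCD liver 9, and the log2 fold change of -1.05 (95% interval -1.75 to -0.35) did not pass the test with edgeR (adjusted p = 0.0679). Krt7 passed under DESeq2 (adjusted p = 0.0205) and without liver 9 (edgeR adjusted p = 0.0385). It is the least well counted of the duct keratins, with 10 to 83 expected counts a library over all 16 livers.

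The hepatocyte keratins were measured far more deeply. Krt8 was at 304.4, 338.1, 324.2 and 318.3 FPKM in Ad_Chrebpa_HFLMCD livers, against 455.5, 443.1, 434.9 and 527.1 FPKM in Ad_GFP_HFLMCD livers, a log2 fold change of -0.46 (SE 0.073, edgeR adjusted p = 0.00737). Krt18 was at 297.8, 313.0, 310.1 and 283.4 FPKM in Ad_Chrebpa_HFLMCD livers, against 404.6, 391.2, 381.5 and 467.4 FPKM in Ad_GFP_HFLMCD livers, a log2 fold change of -0.38 (SE 0.075, edgeR adjusted p = 0.0176). In both genes the groups were separate and the highest liver was Ad_GFP_HFLMCD liver 12.

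Cftr, the apical chloride channel of cholangiocytes, was the rarest marker. Its expected counts were 15, 11, 5 and 4 in Ad_Chrebpa_HFLMCD livers, against 25, 89, 46 and 68 in Ad_GFP_HFLMCD livers. All Ad_Chrebpa_HFLMCD livers were lower, and the log2 fold change was -2.51 with a wide 95% interval of -3.54 to -1.49 (edgeR adjusted p = 0.0131). Epcam, the epithelial adhesion molecule of ducts and ductular cells, measured 1.45, 1.48, 1.21 and 1.36 FPKM in Ad_Chrebpa_HFLMCD livers, against 2.01, 3.94, 2.52 and 2.41 FPKM in Ad_GFP_HFLMCD livers (log2 fold change -0.90, SE 0.191, edgeR adjusted p = 0.0225). Sox9, the transcription factor of duct fate, measured 2.12, 2.25, 1.86 and 1.8 FPKM in Ad_Chrebpa_HFLMCD livers, against 2.9, 3.56, 3.75 and 2.34 FPKM in Ad_GFP_HFLMCD livers (log2 fold change -0.57, SE 0.149, edgeR adjusted p = 0.0465). Cd24a, a surface glycoprotein of progenitor-like duct cells that blood cells also carry, measured 4.11, 4.39, 3.76 and 4.07 FPKM in Ad_Chrebpa_HFLMCD livers, against 4.93, 11.26, 6.61 and 7.22 FPKM in Ad_GFP_HFLMCD livers (log2 fold change -0.80, SE 0.198, edgeR adjusted p = 0.0382). The groups of these 4 genes did not overlap. How often the groups of all tested genes were apart was not counted, so the separations of the markers are descriptions. Liver 10 was the highest of its group for Krt7, Krt19, Krt23, Epcam, Cftr and Cd24a, and liver 11 for Sox9. The calls for Sox9 and Cd24a lay closest to the threshold and were lost in 8 and 7 of the alternatives, those that left out single livers among them, whereas Krt23 passed in all 16 and Cftr in all 15 in which it was tested.

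**Figure D1:**
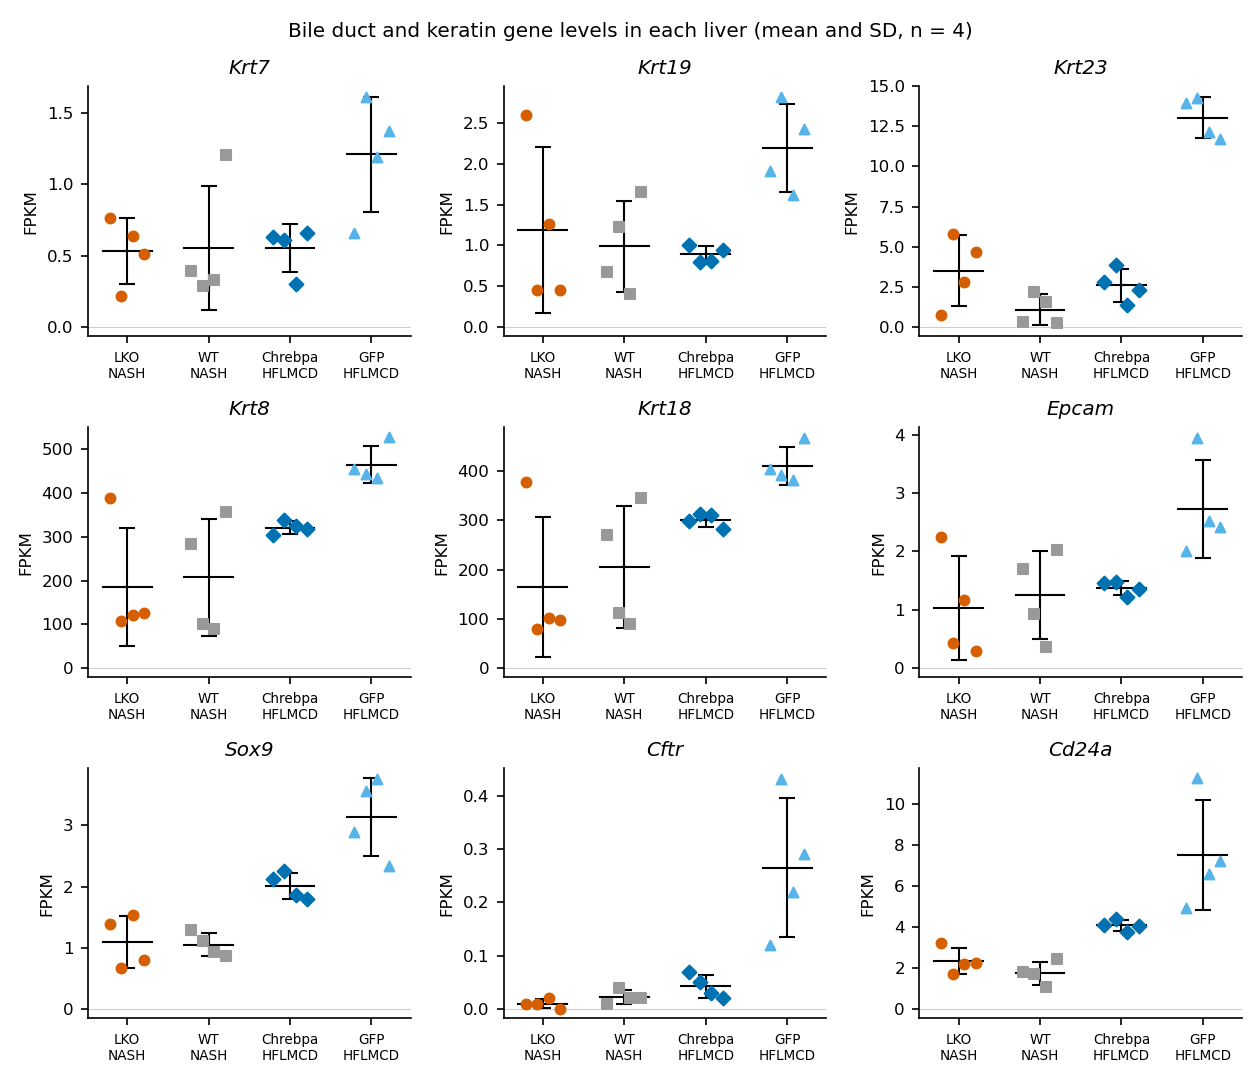
FPKM of the 9 markers in each of 16 livers, in the order LKO_NASH, WT_NASH, Ad_Chrebpa_HFLMCD and Ad_GFP_HFLMCD, with 1 point per liver, a bar at the group mean and an error bar of 1 SD (n = 4). Krt23 lies at 11.73 to 14.26 FPKM in Ad_GFP_HFLMCD livers and at 0.25 to 5.82 FPKM in all other livers, and Krt8 and Krt18 spread widely within LKO_NASH and WT_NASH livers.

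Other genes of the duct program were read from lists that were chosen with earlier results of these data known. Over all 13658 genes tested, 3.18% were called lower and 4.95% higher. Of 16 duct identity genes, 15 were tested and 5 fell with Chrebpα overexpression, none rose, and the median log2 fold change was -0.68. Those that fell were Elf3, an epithelial transcription factor (log2 fold change -0.85, edgeR adjusted p = 0.0183), the tight junction gene Cldn4 (-1.58, 0.0307), the transcription factor Sox4 (-0.70, 0.0407), the tetraspanin Tspan8 (-1.12, 0.0432) and the cadherin Cdh1 (-0.44, 0.0451); Tspan8 and Cdh1 were named after their values were seen. Spp1, the duct-secreted osteopontin, had a log2 fold change of -0.71 (edgeR adjusted p = 0.0803). Of 11 duct transport and cilium genes, 8 were tested, none passed in either direction, and the median was -0.02. In that list Pkhd1, a primary cilium gene, had -0.52 (edgeR adjusted p = 0.0529), and the water channel Aqp1 had 0.33.

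Among 11 tested Notch genes, a pathway of duct fate, 1 fell and none rose: the ligand Jag1, with a log2 fold change of -0.63 (edgeR adjusted p = 0.0191). Among 10 tested genes of the YAP pathway, which comprise its coactivators, partners and targets, 1 fell and none rose, the target Ankrd1 with -1.93 (edgeR adjusted p = 0.0141). Of 12 tested ductular signalling genes, 2 fell, the TWEAK receptor Tnfrsf12a (-0.63, edgeR adjusted p = 0.014) and the cytokine Lif (-1.34, 0.0171), and 2 rose, the receptors Fgfr2 (0.43, 0.039) and Met (0.25, 0.0496). Of 11 tested genes of the keratin cytoskeleton and its inclusions, 2 fell, Krt10 (-0.75, edgeR adjusted p = 0.0331) and the crosslinking enzyme Tgm2 (-0.35, 0.0356), and Sqstm1, the p62 protein of keratin inclusions, rose (0.30, 0.0253). All 14 calls in these duct-related lists were lost in at least 1 alternative, and 13 of them on leaving out a single liver. Tnfrsf12a and Ankrd1 were lost in 1 alternative each, Jag1 and Lif in 3 each and Elf3 in 4. Krt10 and Tgm2 were lost in 6 each, Cldn4, Sox4 and Sqstm1 in 7 each, Cdh1 and Fgfr2 in 8 each, Tspan8 in 9 and Met in 11. The median log2 fold changes of the Notch, YAP, signalling and cytoskeleton lists were -0.47, -0.03, -0.03 and -0.04. Over all genes tested, 3.18% were called lower and 4.95% higher. With 10 to 12 genes tested in each of these lists, 1 or 2 calls in a direction are not read as a result about the list.

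**Figure D2:**
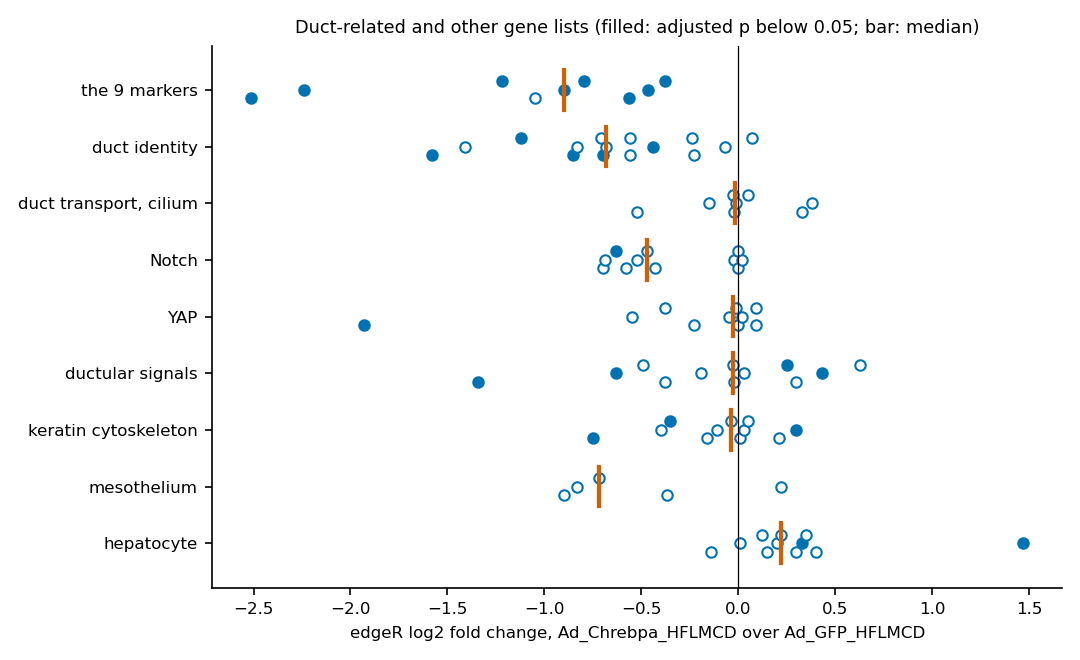
Log2 fold change of each tested gene, Ad_Chrebpa_HFLMCD over Ad_GFP_HFLMCD livers, for the markers and each list, with genes past the edgeR threshold marked and a bar at each list's median. The markers have a median of -0.90, the duct identity genes of -0.68 and the duct transport and cilium genes of -0.02. The mesothelial median of -0.72 rests on 5 low-level genes, none of them called.

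Markers of other cells were measured in the same livers as summed FPKM. The 11 hepatocyte markers found summed to 45900 to 52400 in Ad_Chrebpa_HFLMCD livers and 42500 to 52600 in Ad_GFP_HFLMCD livers, with 2 called higher, none lower and a median of 0.22. The 8 macrophage markers summed to 333 to 488 in Ad_Chrebpa_HFLMCD livers and 366 to 571 in Ad_GFP_HFLMCD livers, with 1 called higher. The 8 stellate cell markers summed to 124 to 199 in Ad_Chrebpa_HFLMCD livers and 166 to 272 in Ad_GFP_HFLMCD livers, with none called. The 6 mesothelial markers, cells that also carry Krt19, Krt8 and Krt18, summed to 0.77 to 5.64 in Ad_Chrebpa_HFLMCD livers and 1.89 to 4.94 in Ad_GFP_HFLMCD livers. None of 5 tested was called. Their median log2 fold change was -0.72, close to that of the duct identity genes, but it rests on 5 low-level genes running from -0.90 to 0.22. Msln alone ran from 0.03 to 1.49 FPKM within Ad_Chrebpa_HFLMCD livers. Every mesothelial marker was listed in at least 1 liver of each group. The 7 blood cell markers set beside Cd24a summed to 56.5 to 66.3 in Ad_Chrebpa_HFLMCD livers and 49.5 to 75.3 in Ad_GFP_HFLMCD livers, with 1 called higher. The 7 proliferation markers summed to 47.0 to 65.6 in Ad_Chrebpa_HFLMCD livers and 59.3 to 79.8 in Ad_GFP_HFLMCD livers, with 1 called lower. For pancreas and intestine, 2 of 6 markers were tested and 1 was called higher. Cpa1, Pnlip and Ctrb1 were unlisted, and so set to 0, in every Ad_Chrebpa_HFLMCD liver. The median log2 fold changes were 0 for macrophages, -0.19 for stellate cells, 0.23 for blood cells and -0.28 for proliferation. The part of these cells in the fall of the duct markers was not tested.

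After hepatocyte deletion of Chrebpα on the NASH diet, no marker passed the test, and none of the 12786 genes did: 0% were called higher and 0% lower with edgeR. At an unadjusted p under 0.05 there were 1737 genes, and DESeq2 called 90 higher and 68 lower. Of the markers, 8 were tested, since Cftr was at 0 to 3 expected counts in LKO_NASH livers and 1 to 5 in WT_NASH livers. All 8 had overlapping groups, a share that was not counted over all genes tested, and their median log2 fold change was -0.14. When LKO_NASH liver 21 was left out, 166 genes were called higher and 254 lower by edgeR, with none of the 8 markers among them.

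Krt23 had the largest estimate, 2.92-fold higher. It measured 0.74, 5.82, 2.83 and 4.65 FPKM in LKO_NASH livers 21 to 24, against 0.3, 2.18, 1.58 and 0.25 FPKM in WT_NASH livers 17 to 20. Livers 22, 23 and 24 were above every WT_NASH liver, and liver 21 was below WT_NASH livers 18 and 19. The log2 fold change was 1.55 (95% interval -0.15 to 3.25, edgeR adjusted p = 0.396). It was 1.89 without liver 21 (edgeR adjusted p = 0.104), and 1.07 to 2.11 over all alternatives. Krt7 measured 0.533 ± 0.232 FPKM in LKO_NASH livers and 0.553 ± 0.434 FPKM in WT_NASH livers (SD, n = 4 each), and the log2 fold change was -0.20 (95% interval -1.38 to 0.98, edgeR adjusted p = 0.859). Krt19 measured 2.6, 0.45, 1.26 and 0.45 FPKM in LKO_NASH livers, against 0.67, 1.22, 0.41 and 1.65 FPKM in WT_NASH livers, with a log2 fold change of 0.16 (-1.29 to 1.60, edgeR adjusted p = 0.91). Neither duct keratin was shifted beyond the spread of the livers, and the highest Krt19 value was that of LKO_NASH liver 21.

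Krt8 measured 388.7, 107.5, 120.7 and 125.1 FPKM in LKO_NASH livers 21 to 24, against 284.5, 100.8, 89.1 and 357.2 FPKM in WT_NASH livers 17 to 20. Krt18 measured 378.3, 79.3, 102.2 and 98.4 FPKM in LKO_NASH livers, against 269.9, 112.6, 90.4 and 346.2 FPKM in WT_NASH livers. Livers 21, 17 and 20 were high in both genes and the other 5 were low, so each group held livers at both levels. Krt8 had a log2 fold change of -0.28 (95% interval -1.56 to 0.99, edgeR adjusted p = 0.81) and Krt18 of -0.43 (-1.78 to 0.92, 0.727). The highest liver exceeded the lowest 3.62-fold in Krt8 among LKO_NASH livers and 4.01-fold among WT_NASH livers, compared with 1.11-fold among Ad_Chrebpa_HFLMCD livers and 1.21-fold among Ad_GFP_HFLMCD livers.

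Epcam measured 2.24, 0.43, 1.17 and 0.3 FPKM in LKO_NASH livers, against 1.7, 0.93, 0.36 and 2.02 FPKM in WT_NASH livers, again highest in livers 21, 17 and 20. Its log2 fold change was -0.39 (95% interval -1.95 to 1.16, edgeR adjusted p = 0.783). Sox9 measured 1.39, 0.67, 1.53 and 0.8 FPKM in LKO_NASH livers, against 1.29, 1.12, 0.93 and 0.87 FPKM in WT_NASH livers, with a log2 fold change of -0.09 (-0.78 to 0.60, edgeR adjusted p = 0.895). Cd24a measured 3.21, 1.72, 2.18 and 2.25 FPKM in LKO_NASH livers, against 1.8, 1.7, 1.07 and 2.43 FPKM in WT_NASH livers, with a log2 fold change of 0.28 (-0.34 to 0.90, edgeR adjusted p = 0.615). For Krt19, Krt8, Krt18, Epcam and Sox9, the interval of the deletion estimate included changes of either sign as large as those called with overexpression. None of the genes in the duct identity, duct transport, Notch, YAP, ductular signalling and keratin cytoskeleton lists was called, with medians of 0.15, 0.07, 0.36, 0.30, -0.10 and -0.06. The summed hepatocyte markers were 53000 to 63000 FPKM in LKO_NASH livers and 58300 to 69200 FPKM in WT_NASH livers, and the mesothelial markers 0.98 to 4.15 FPKM in LKO_NASH livers and 1.0 to 3.19 FPKM in WT_NASH livers. The macrophage markers summed to 42.6 to 95.7 FPKM in LKO_NASH livers and 31.1 to 63.3 FPKM in WT_NASH livers, and the stellate cell markers to 25.9 to 48.0 FPKM in LKO_NASH livers and 16.7 to 26.8 FPKM in WT_NASH livers, with no gene of these lists called.

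**Figure D3:**
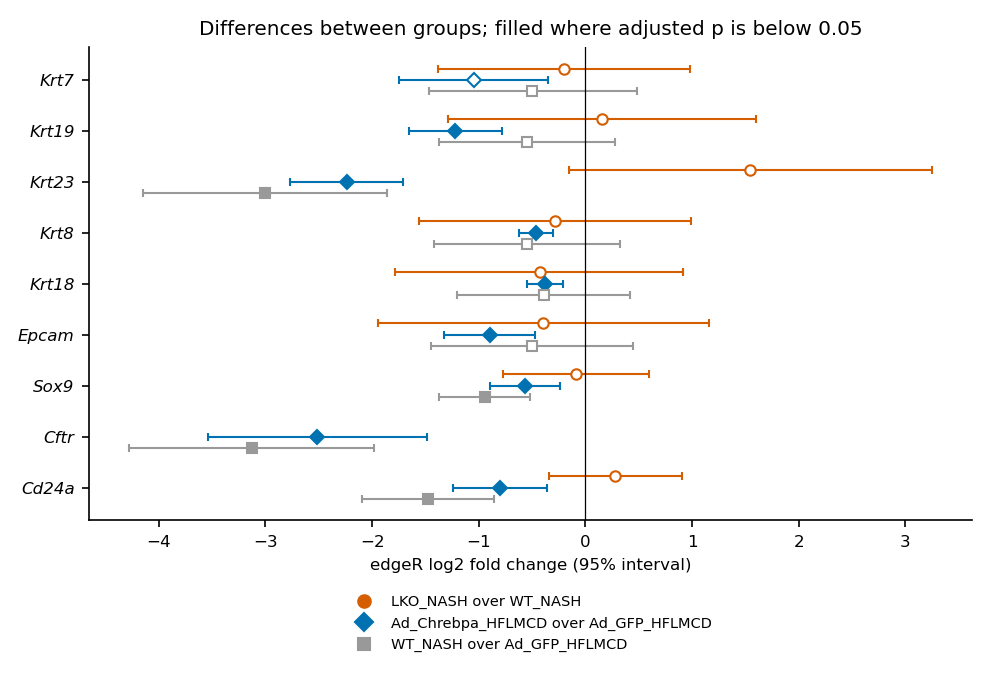
Log2 fold change of each marker with its 95% interval for the 3 comparisons, from edgeR, with filled symbols for markers past an adjusted p of 0.05. The overexpression estimates all lie below 0, while every interval of the deletion comparison spans 0.

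The duct keratins were then set against the hepatocyte keratins within each liver. This ratio is a score over the markers and is given as a description. The summed Krt7, Krt19 and Krt23 level was 0.739%, 0.813%, 0.394% and 0.657% of the summed Krt8 and Krt18 level in Ad_Chrebpa_HFLMCD livers 13 to 16, against 1.92%, 2.24%, 1.83% and 1.56% in Ad_GFP_HFLMCD livers 9 to 12. It was 0.535%, 3.48%, 2.12% and 2.51% in LKO_NASH livers 21 to 24, against 0.245%, 1.73%, 1.29% and 0.441% in WT_NASH livers 17 to 20. The overexpression groups were separate and the deletion groups overlapped. The mean log2 ratio differed by -1.58 with overexpression and by 1.34 with deletion. When Krt23 was left out it differed by -0.73 with overexpression and by 0.34 with deletion. Both differences thus came in large part from Krt23, that of the deletion more so. Krt23 made up 55.6% to 73.4% of the duct keratin level in Ad_Chrebpa_HFLMCD livers and 75.5% to 84.5% in Ad_GFP_HFLMCD livers. In the deletion experiment its part ran from 18.1% to 89.7% in LKO_NASH livers and from 8.06% to 68.1% in WT_NASH livers.

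**Figure D4:**
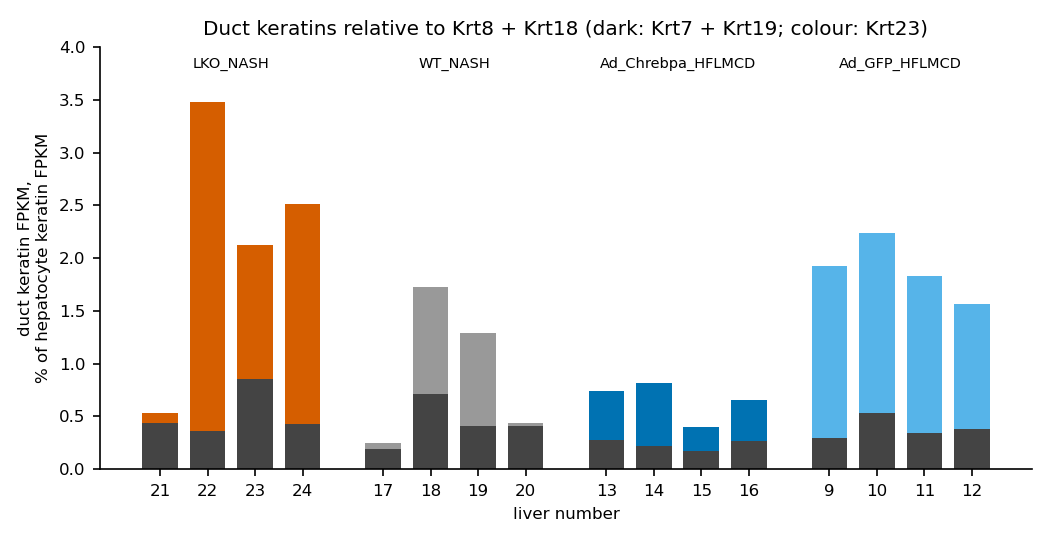
Summed FPKM of Krt7, Krt19 and Krt23 as a percentage of the summed FPKM of Krt8 and Krt18, with and without Krt23, as 1 bar per liver and with livers numbered, the dark part of a bar being Krt7 with Krt19 and the coloured part Krt23. With Krt23, Ad_Chrebpa_HFLMCD livers average 0.651% and Ad_GFP_HFLMCD livers 1.89%, and without it Ad_Chrebpa_HFLMCD livers average 0.233% and Ad_GFP_HFLMCD livers 0.389%.

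Krt8 and Krt18 varied together, though not in fixed proportion. The Krt8 to Krt18 ratio of FPKM was 1.02 to 1.12 in Ad_Chrebpa_HFLMCD livers and 1.13 to 1.14 in Ad_GFP_HFLMCD livers, and 1.03 to 1.36 in LKO_NASH livers and 0.895 to 1.05 in WT_NASH livers. It was lower in every Ad_Chrebpa_HFLMCD liver than in any Ad_GFP_HFLMCD liver, and the LKO_NASH and WT_NASH livers overlapped. After subtraction of group means, log2(FPKM + 0.1) of both genes correlated at r = 0.989 over 16 livers. Krt23 ran against them, with r = -0.916 to Krt8 over 16 livers. That relation was carried by the NASH diet livers, where r was -0.968 over 8 livers, and was -0.026 over the 8 HFLMCD livers. Within the NASH diet livers it set livers 21, 17 and 20 against the others. Among those others, too few livers remained in each group to show a direction. In LKO_NASH livers 22, 23 and 24, Krt8 was 107.5, 120.7 and 125.1 FPKM and Krt23 was 5.82, 2.83 and 4.65 FPKM. In WT_NASH livers 18 and 19, Krt8 was 100.8 and 89.1 FPKM and Krt23 was 2.18 and 1.58 FPKM. Krt8 exceeded Krt23 by 525.3, 18.5, 42.6 and 26.9 times in LKO_NASH livers 21 to 24 and by 948.4, 46.2, 56.4 and 1428.9 times in WT_NASH livers 17 to 20. The same 3 livers, 21, 17 and 20, stood apart in this ratio. They held 28660264, 27600570 and 33361940 expected counts, within the range of the other NASH diet libraries, and their leading principal component values were -21.13, -35.05 and -20.01, the lowest of the 8. Their summed hepatocyte markers were 60100, 58300 and 67100 FPKM, within the range of the others. The part of the principal component in the keratin values was not tested.

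**Figure D5:**
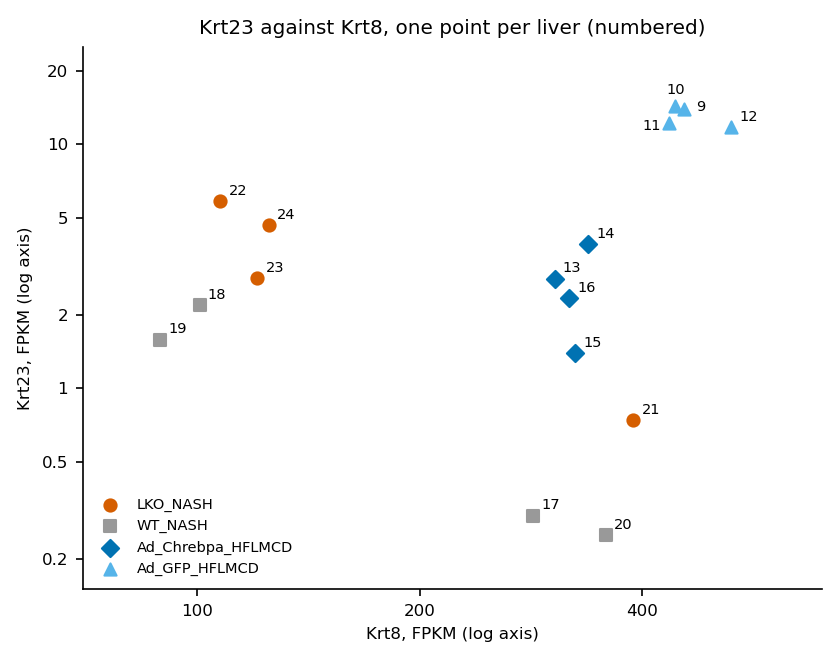
Krt23 against Krt8 in FPKM, both on log axes, with 1 numbered point per liver and a symbol per group. LKO_NASH liver 21 and WT_NASH livers 17 and 20 lie at high Krt8 and at 0.25 to 0.74 FPKM of Krt23, the other NASH diet livers at 89.1 to 125.1 FPKM of Krt8, and Ad_Chrebpa_HFLMCD livers lie below and left of Ad_GFP_HFLMCD livers.

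Other pairs moved together across livers. Krt19 and Epcam correlated at r = 0.864 over 16 livers, at 0.881 over the 8 NASH diet livers and 0.631 over the 8 HFLMCD livers. Epcam and Cd24a correlated at 0.782 over 16 livers, 0.84 over the NASH diet livers and 0.967 over the HFLMCD livers. The HFLMCD value rests mostly on the Ad_GFP_HFLMCD livers, where Cd24a ran from 4.93 to 11.26 FPKM and was highest in liver 10. In Ad_Chrebpa_HFLMCD livers Cd24a ran only from 3.76 to 4.39 FPKM. Cftr and Cd24a correlated at 0.917 over the HFLMCD livers and -0.044 over the NASH diet livers. In the NASH diet livers Cftr was at 0 to 0.04 FPKM, below the 0.1 added before the logarithm. Its correlations there rest on few counts and are not set against those of the HFLMCD livers. Krt23 did not run only against the hepatocyte keratins. Over the NASH diet livers its r was -0.751 to Krt7, -0.656 to Krt19, -0.86 to Epcam, -0.465 to Sox9 and -0.79 to Cd24a. To Cftr, at the low counts given above, it was 0.351 there. Over the HFLMCD livers, r of Krt23 to these markers was 0.114 to 0.48. Epcam and Cd24a instead followed Krt18 over the NASH diet livers, at 0.872 and 0.889. Among 10743 genes with a mean of at least 1 FPKM, the most similar to Krt8 were Krt18, Ddx1 (r = 0.974), Smu1 (0.973), Cttn (0.972) and Lmna (0.971). Those most similar to Krt23 included Cdk18 (0.957), Mettl7a1 (0.949), Pitrm1 (0.94) and Agmo (0.933), and to Krt19 they were Pdlim7 (0.896), Ik (0.89), Epcam, Leng9 (0.824) and Csnk2b (0.819). These correlations share libraries and group-centred values over 16 livers and are descriptions.

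Across the 4 groups, Ad_GFP_HFLMCD livers had the highest mean FPKM of all 9 markers. They were separate from the next group by mean for Krt23, Krt8, Krt18, Epcam, Sox9, Cftr and Cd24a, and overlapped with it for Krt7 and Krt19. For Epcam they still overlapped with both NASH diet groups. Ad_GFP_HFLMCD liver 9 was at 2.01 FPKM, LKO_NASH liver 21 at 2.24 FPKM and WT_NASH liver 20 at 2.02 FPKM. The next group was LKO_NASH for Krt23, at 3.51 ± 2.22 FPKM, ahead of Ad_Chrebpa_HFLMCD at 2.61 ± 1.04 and WT_NASH at 1.08 ± 0.959, with Ad_GFP_HFLMCD at 13.0 ± 1.27 (SD, n = 4 each). For Sox9 and Cd24a, Ad_Chrebpa_HFLMCD livers also stood clear of LKO_NASH livers; all other neighbours in the order overlapped. Set against the counts, the FPKM scale of the WT_NASH livers was shifted against Ad_GFP_HFLMCD livers by -0.60 on the log2(FPKM + 0.1) scale for the median gene. The order of levels across diets is therefore given for the FPKM scale. On counts, all 9 markers also had lower estimates in WT_NASH than in Ad_GFP_HFLMCD livers, and 4 were called. Other pairs of groups across diets were not compared on counts.

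Both control groups were compared on counts as well, with WT_NASH over Ad_GFP_HFLMCD livers. Genotype, diet, diet length and virus differ together here and cannot be told apart, and each of these groups also serves as the control of another comparison. Of the 9 markers, 4 were lower and none higher, beside 30.9% of 13488 genes called lower and 28.2% called higher, so calls were common in general. Krt23 was 8.02-fold lower in WT_NASH livers (edgeR adjusted p = 0.00068), and Cftr had a log2 fold change of -3.13 (0.000528). Cd24a had -1.48 (edgeR adjusted p = 0.00122) and Sox9 -0.94 (0.00193). Krt7, Krt19, Krt8, Krt18 and Epcam had estimates of -0.39 to -0.55 that did not pass. On log2(FPKM + 1) with limma, where 740 genes were called higher and 9860 lower, all 9 markers were called lower. Krt7 passed without WT_NASH liver 20 (log2 fold change -1.18, edgeR adjusted p = 0.0136). Of 15 tested duct identity genes 13 were lower and 1 higher, among the lower ones Elf3 at -3.47 and Ddr1, a collagen receptor, at -2.56. Of 8 duct transport genes 2 were lower and 1 higher, of 11 Notch genes 5 were lower, of 10 YAP pathway genes 5 were lower and 2 higher, the coactivator Yap1 among the higher ones, of 12 ductular signalling genes 10 were lower and 2 higher, and of 11 keratin cytoskeleton genes 3 were lower and 3 higher. All 11 hepatocyte markers were higher in WT_NASH livers, and 7 of 8 macrophage, 7 of 8 stellate cell and 7 of 7 proliferation markers were lower. The part of these cells in the marker levels was not tested.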

How the data were processed

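RNA of 16 livers was sequenced, 1 library each. The authors deposited expected counts (estimated fragments per gene, not normalised) and FPKM, both per the file headers. HISAT2 was used per the submitters' processing notes; the build, the annotation and the counter were not given in the sources used here. The lowest FPKM listed was 0.01, and unlisted genes were set to 0. NCBI gene numbers matched a GRCm38.p6 table for 17371 of 17410 genes, used for names and promoters.

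Groups came from the labels, with 4 livers each. The labels do not state outright that the livers are separate animals, and p-values cover only the spread between these samples, which may be technical. The chi-square per degree of freedom between libraries of a group was 17.2 to 240.6. Rounded expected counts entered edgeR 4.0.16 (R 4.3.3) in separate fits of 8 libraries, after filterByExpr and TMM, with the two-sided quasi-likelihood F test. Biological coefficients of variation were 0.221 (deletion), 0.126 (overexpression) and 0.164 (controls). The SE is the log2 fold change divided by the square root of F. The script was tested on simulated data. Alternatives were DESeq2 1.42.0, its size factors, limma 3.58.1 (voom, and log2(FPKM + 1) or log2(FPKM + 0.1)), a mean FPKM of at least 1, no filter, all 16 libraries in 1 fit, a minimum 1.5-fold change, and leaving out each liver. Figures used Python 3.11.15 and matplotlib 3.10.9.

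The markers and lists were chosen with earlier results of these data known. Every marker was named; of each list, up to 3 called genes with the lowest p were named, and others were added after their values were seen. Counting error limits Krt7 and Cftr most. Some genes that the rule would name are not reported here.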

Additional observations from a re-analysis of the deposited data

Results flagged for a closer look

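Within groups of 4 livers, Dixon's gap test at its 95% critical value picked out 4 values in 40 groups tested, and chance alone picks about 1 in 20 groups. In LKO_NASH livers, liver 21 was highest for Krt8 at 388.7 FPKM, against 107.5 to 125.1 FPKM in the other 3 livers (gap over range 0.937). The same liver was highest for Krt18 at 378.3 FPKM, against 79.3 to 102.2 FPKM (0.923). Among WT_NASH livers, liver 20 was highest for Krt7 at 1.2 FPKM, against 0.29 to 0.39 FPKM (0.89). Among Ad_Chrebpa_HFLMCD livers, liver 15 was lowest for Krt7 at 0.3 FPKM, against 0.61 to 0.66 FPKM (0.861). No other liver was picked out for the 9 markers and the keratin ratio.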

How the results depend on the processing

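The deletion comparison called 90 genes higher and 68 lower with DESeq2 and 93 and 68 with all 16 libraries in 1 fit, against 0 and 0 in the reported fit; leaving out 1 liver gave 0 to 166 higher and 0 to 254 lower, above 0 only without liver 21. No marker was called under any of these. Signs of small deletion estimates turned: Krt19 to -0.104 (voom), Krt7 to 0.005 and 0.054 (log2(FPKM + 1) and log2(FPKM + 0.1)) and Sox9 to 0.013 (log2(FPKM + 1)). Leaving out 1 liver gave -0.627 to 0.483 for Krt19, -0.468 to 0.466 for Krt7, -0.305 to 0.092 for Sox9 and -0.978 to 0.035 for Krt8.

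The overexpression comparison called 676 genes higher and 434 lower; it called 1102 and 842 with DESeq2, 436 and 1010 on log2(FPKM + 1), 449 and 1043 on log2(FPKM + 0.1), 240 and 103 with all 16 libraries, 237 and 207 with a minimum 1.5-fold change, and 263 to 937 and 137 to 785 on leaving out 1 liver. The share of higher calls was 60.9%, against 30.2% and 30.1% on the FPKM scales. Markers called lower numbered 2 with all 16 libraries, 5 with the minimum fold change and 4 to 8 on leaving out 1 liver. The keratin ratio difference was -0.729 with Krt7 and Krt19 only, -1.024 with means of log2 values and -1.702 to -1.354 on leaving out 1 liver. In the control comparison, log2(FPKM + 1) gave 740 higher and 9860 lower and log2(FPKM + 0.1) gave 742 and 9893, with 9 markers lower on each; the minimum fold change left 1794 higher, 35.8% of calls against 47.7%. Its keratin ratio difference was 0.029 with Krt7 and Krt19 only, against -1.42 with Krt23, and -1.852 to -0.913 on leaving out 1 liver; in the deletion comparison it was 0.337 with Krt7 and Krt19 only, against 1.34, and 0.834 to 1.916 on leaving out 1 liver. The cause of these changes was not tested. No paired analysis was possible because the groups share no replicate number. Depth limits Cftr and Krt7 most.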
